A study of Mus musculus with 19 samples.

Results

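The genes described here encode the proteins of the cytosolic ribosome. They were chosen by a rule on names, with earlier results of these data known. The rule took symbols in the authors' table made of Rpl or Rps, a number and up to 2 further letters. It also took Rplp0, Rplp1, Rplp2 and Rpsa, and left pseudogene symbols out. The rule found 85 of the 55416 genes in the read table, and 82 of them, 49 of the large subunit and 33 of the small subunit, passed the filter on low counts, as did 19234 genes in all. The remaining 3, Rpl3l, Rpl39l and Rpl32l, did not: Rpl3l had 0 to 5 reads in a library, Rpl32l 1 to 9 and Rpl39l 0 to 20, so no change is given for them.

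Total RNA depleted of ribosomal RNA was sequenced from the right hippocampus of C57BL6 mice in 19 libraries. WT mice were EZH2(+/+);Syn1Cre(+/-) and EZH2nHom mice were EZH2(-/-);Syn1Cre(+/-), so both genotypes carried the Synapsin1-Cre driver, which acts in neurons and leaves EZH2, which writes the Polycomb mark on histone H3, in glia. Each genotype received intraperitoneal saline or repeated low doses of kainate, a glutamate receptor agonist given to induce status epilepticus, and tissue was taken on day 4. EZH2nHom kainate had 4 libraries and each of the other groups had 5. The age of the animals is not given in the sources used here.

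A cytosolic ribosome joins a small subunit, which reads the mRNA, to a large subunit, which links amino acids and releases the new chain through an exit tunnel. Its proteins are needed in matching amounts, and their mRNAs typically start with a cytosine and a run of pyrimidines, the TOP motif, through which mTORC1 and the RNA-binding protein LARP1 set how much they are translated. Neurons and glia all express these genes, so in tissue their level reflects every cell present. In bulk RNA fewer cells of a type and less RNA per cell cannot be told apart.

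The starts of 7 members are shown because the results turn on them: Rplp0, Rps9, Rps18 and Rpl39 for kainate, and Rps27, Rps24 and Rps26 for genotype. Each window holds the 15 bases before and the 15 bases from the RefSeq transcription start, read 5′ to 3′ on the gene's own strand in GRCm38.p6, so it covers promoter and the opening of the first exon. On the plus strand lie Rplp0 at chr5:115559452-115559481, Rps9 at chr7:3704026-3704055 and Rps24 at chr14:24490663-24490692. On the minus strand lie Rps18 at chr17:33955651-33955680, Rps27 at chr3:90213634-90213663, Rpl39 at chrX:37085208-37085237 and Rps26 at chr10:128626492-128626521. Capitals mark the longest run made of a C and at least 4 further letters that are C or T. Relative to the annotated start, the runs began at -5 in Rps9, at -2 in Rps18, Rps27 and Rps24, at 6 in Rpl39 and at 4 in Rps26. None began at the annotated start itself, so a run in a window need not be a TOP motif.
Rplp0: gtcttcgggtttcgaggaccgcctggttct
Rps9: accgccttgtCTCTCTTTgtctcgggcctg
Rps18: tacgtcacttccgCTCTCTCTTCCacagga
Rpl39: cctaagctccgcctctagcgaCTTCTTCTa
Rps27: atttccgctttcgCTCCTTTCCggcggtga
Rps24: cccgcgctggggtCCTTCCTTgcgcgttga
Rps26: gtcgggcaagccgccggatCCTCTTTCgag
Of the 85 members, 63 matched a RefSeq start by symbol. Such a run, searched on the gene's strand only, lay in at least 1 window of 42 of those 63 genes (66.7%), and in 58.7% of the 75 member windows against 36.4% of all 32851 windows of the same length. The Rplp0 window held none.

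Libraries held 24496685 to 43948317 reads, and members took 1.04% to 1.56% of them. Ezh2 averaged 11.2 ± 1.17 CPM in WT saline and 13.6 ± 1.42 CPM in EZH2nHom saline (SD, n = 5 each; CPM stands for reads scaled to a common TMM-normalised library total), a log2 difference of 0.27 ± 0.16 (SE; edgeR adjusted p = 0.29). A count over the whole gene in whole tissue does not show the floxed exons in neurons, so it does not check the genotype labels. Neuron markers made 4803 to 5339 CPM in WT saline, with none of the 9 without reads, which matches the labelled tissue. Nothing in the labels says that libraries of a group came from separate animals, so p-values measure the spread between libraries. The counting is not stated to use strand, and 82 of the 85 members share at least 1 stretch of 50 bases with another gene model, 33 of them at least 50% of such stretches, so reads may have moved between a member and its copies. Named ribosomal protein pseudogenes received 0.698 to 1.14 reads for each 100 member reads.

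After kainate, 12 of 82 ribosomal protein genes rose in WT and 45 of 82 in EZH2nHom. In WT, 12 members rose, 0 fell and 70 did not pass the test (edgeR quasi-likelihood test, adjusted p under 0.05), where 9.47% of all genes tested rose and 2.57% fell, or 7.29% and 3.21% of the 3924 genes averaging at least 50 CPM. In EZH2nHom, 45 members rose, 0 fell and 37 did not pass, where 14.3% of all genes rose and 11.8% fell, or 9.33% and 22% of genes averaging at least 50 CPM. The median log2 change of the 82 members was 0.16 in WT and 0.32 in EZH2nHom, and over all genes it was -0.02 in both. Changes were small and shared: 75 members in WT and 79 in EZH2nHom had a fitted change above 0, against 47.6% and 48.4% of all genes. The levels of the 2 groups did not overlap for 22 members in WT and 14 in EZH2nHom, all higher after kainate, where 9.78% and 9.93% of all genes did so, and 4.63% and 9.23% did so in the lower direction.

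Summed over the members, the level was 12068 ± 538 CPM in WT saline and 13574 ± 823 CPM in WT kainate (SD, n = 5 each). The sum was 12088 ± 571 CPM in EZH2nHom saline (n = 5) and 14654 ± 2201 CPM in EZH2nHom kainate (n = 4). Single libraries set much of that spread. EZH2nHom kainate replicate 1, at 12121 CPM, lay within the saline range and was the lowest of its group for 68 of 82 members, while replicate 2, at 17098 CPM, was the highest for 50. In WT kainate, replicate 4 was the highest for 56 members, at 14757 CPM. The relative spread between libraries, SD over mean, had a median over members of 6.15% in WT saline, 7.08% in WT kainate, 9.07% in EZH2nHom saline and 18.01% in EZH2nHom kainate.

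**Figure D1:**
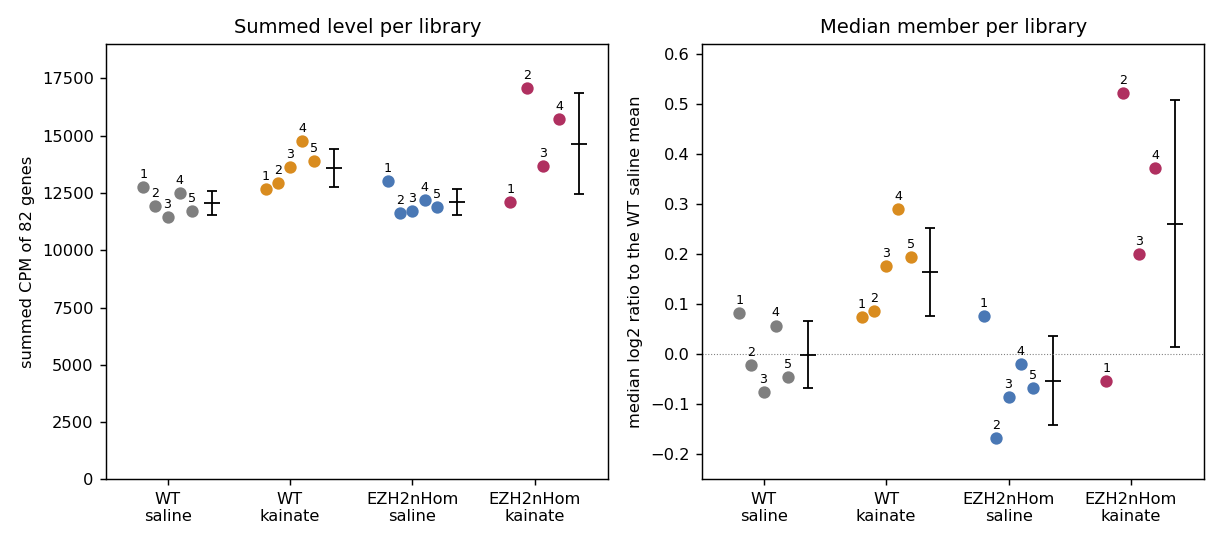
Level of the ribosomal protein genes per library. Left, CPM summed over the members; right, the median over 82 members of the log2 ratio to the WT saline mean. Points are libraries numbered by replicate, and bars give mean ± SD. EZH2nHom kainate spans 12121 to 17098 CPM, with replicate 1 inside the saline range.

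The stalk of the large subunit, which recruits the translation factors, held the largest rise. Rplp0, the base of the stalk, had 152, 144, 155, 155 and 159.8 CPM in WT saline and 183, 202, 265, 305 and 238 CPM in WT kainate. It had 138, 131, 140.4, 158 and 144 CPM in EZH2nHom saline and 179, 263, 225 and 297 CPM in EZH2nHom kainate. Every kainate library was above every saline library of its genotype. The log2 change was 0.64 ± 0.13 in WT and 0.76 ± 0.13 in EZH2nHom (SE; edgeR adjusted p = 0.0025 and 4.4e-04). The stalk partners were noisier. Rplp1 gave 0.41 ± 0.17 and 0.38 ± 0.18 and passed in neither genotype (edgeR adjusted p = 0.13 and 0.12). Rplp2 gave 0.37 ± 0.20 in WT (edgeR adjusted p = 0.27) and rose by 0.62 ± 0.21 in EZH2nHom (adjusted p = 0.036). With the replicate number as a block, both passed in WT (edgeR adjusted p = 0.0079 for Rplp1 and 0.045 for Rplp2).

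The proteins that line the mRNA entry of the small subunit are Rps2, Rps3 and Rps9. Rps9 had 152, 145, 139.9, 149 and 142 CPM in WT saline and 168, 184, 190.4, 212 and 190.4 CPM in WT kainate. In EZH2nHom it had 138, 123, 145, 137 and 137 CPM after saline and 173, 206, 223 and 275 CPM after kainate. Neither genotype showed an overlap between treatments, and Rps9 rose by 0.38 ± 0.09 in WT and 0.69 ± 0.10 in EZH2nHom on the log2 scale (edgeR adjusted p = 0.013 and 7.6e-05). In EZH2nHom it had the smallest p of all members. Rps3 rose in EZH2nHom (0.32 ± 0.10) and gave 0.12 in WT, and Rps2 passed in neither (0.20 and 0.26).

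Rps18, a protein of the head of the small subunit, was at 135, 136, 135, 155 and 146 CPM in WT saline and 158, 167, 179.5, 196 and 178 CPM in WT kainate. It was at 109.8, 99.3, 101, 93.6 and 96.6 CPM in EZH2nHom saline and 126, 192, 145 and 154 CPM in EZH2nHom kainate. It rose in both, by 0.31 ± 0.09 and 0.62 ± 0.10 (edgeR adjusted p = 0.031 and 1.5e-04), again without overlap. With the replicate number as a block its WT change no longer passed (edgeR adjusted p = 0.055). At the mRNA exit, Rps14 and Rps28 rose in EZH2nHom (0.43 and 0.39), and Rpsa passed in neither (0.18 and 0.13).

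Rps26, which contacts mRNA upstream of the start codon, ran differently. It had 44.3, 40.1, 42.2, 42.7 and 48.8 CPM in WT saline and 48.1, 50.5, 62.8, 67.6 and 67.7 CPM in WT kainate, where replicate 1 lay inside the saline range, and 77.3, 94.8, 74.3, 102 and 89.9 CPM in EZH2nHom saline and 84.7, 78.2, 73.9 and 102 CPM in EZH2nHom kainate. It rose by 0.44 ± 0.12 in WT (edgeR adjusted p = 0.016) and gave -0.05 ± 0.12 in EZH2nHom (adjusted p = 0.81), where the saline and kainate libraries overlapped. The difference of the responses was -0.49 ± 0.17 and did not pass (adjusted p = 0.46).

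Along the peptide exit tunnel and port, 8 listed members gave 0 rises in WT and 4 in EZH2nHom, where 14.6% and 54.9% of all members rose. Rpl39, a short protein of the tunnel wall, had 77.9, 65.8, 64.2, 74.6 and 67.2 CPM in WT saline and 77.4, 75.6, 97.3, 99.1 and 79.0 CPM in WT kainate. In EZH2nHom it had 52.8, 40.4, 38.8, 39.1 and 42.5 CPM after saline and 54.1, 81.3, 66.4 and 87.1 CPM after kainate. Its log2 change was 0.29 ± 0.12 in WT, which did not pass (edgeR adjusted p = 0.14), and 0.76 ± 0.13 in EZH2nHom, which did (adjusted p = 3.2e-04). All 4 EZH2nHom kainate libraries were above the 5 saline libraries, the lowest by a narrow margin. Rpl23a, Rpl19 and Rpl35 rose less in EZH2nHom (0.32, 0.27 and 0.28).

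Other members with the smallest p were spread over the large subunit. Rpl10a, the protein of the L1 stalk at the tRNA exit, rose from 91.0 ± 2.99 to 122 ± 13.9 CPM in WT (SD, n = 5 each) and from 90.2 ± 3.77 (n = 5) to 118 ± 15.1 CPM (n = 4) in EZH2nHom, by 0.42 and 0.39 on the log2 scale. Rpl41, a very short peptide at the subunit interface, rose by 0.51 and 0.47, and Rpl10, which completes the maturing large subunit, by 0.27 and 0.29. Rpl18 rose in both (0.37 and 0.65), and Rpl37a rose in EZH2nHom (0.52) with 0.12 in WT. The 5S RNA particle, whose Rpl5 and Rpl11 also bind Mdm2, gave 0.17 and 0.15 in WT without passing, and in EZH2nHom Rpl11 rose (0.39) while Rpl5 gave 0.14.

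At the decoding centre and beak, 0 of 5 members rose in WT and 1 in EZH2nHom, Rps27a (0.37), which is made as a fusion with ubiquitin. Rps6, whose phosphorylation by S6 kinase is a usual readout of mTORC1, did not pass in WT or EZH2nHom (0.11 ± 0.09 and 0.19 ± 0.09). Of 18 members mutated in Diamond-Blackfan anaemia, an inherited failure of red cell production, 2 rose in WT and 11 in EZH2nHom, beside those same shares of 14.6% and 54.9% of all members. The lowest values in WT were those of Rpl9 (-0.11), Rps21 (-0.07) and Rpl6l (-0.04). In EZH2nHom they were Rps4l (-0.15), Rpl21 (-0.11) and Rps26, and the only other member under 0 in either genotype by more than 0.01 was Rpl3 in WT (-0.02).

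**Figure D2:**
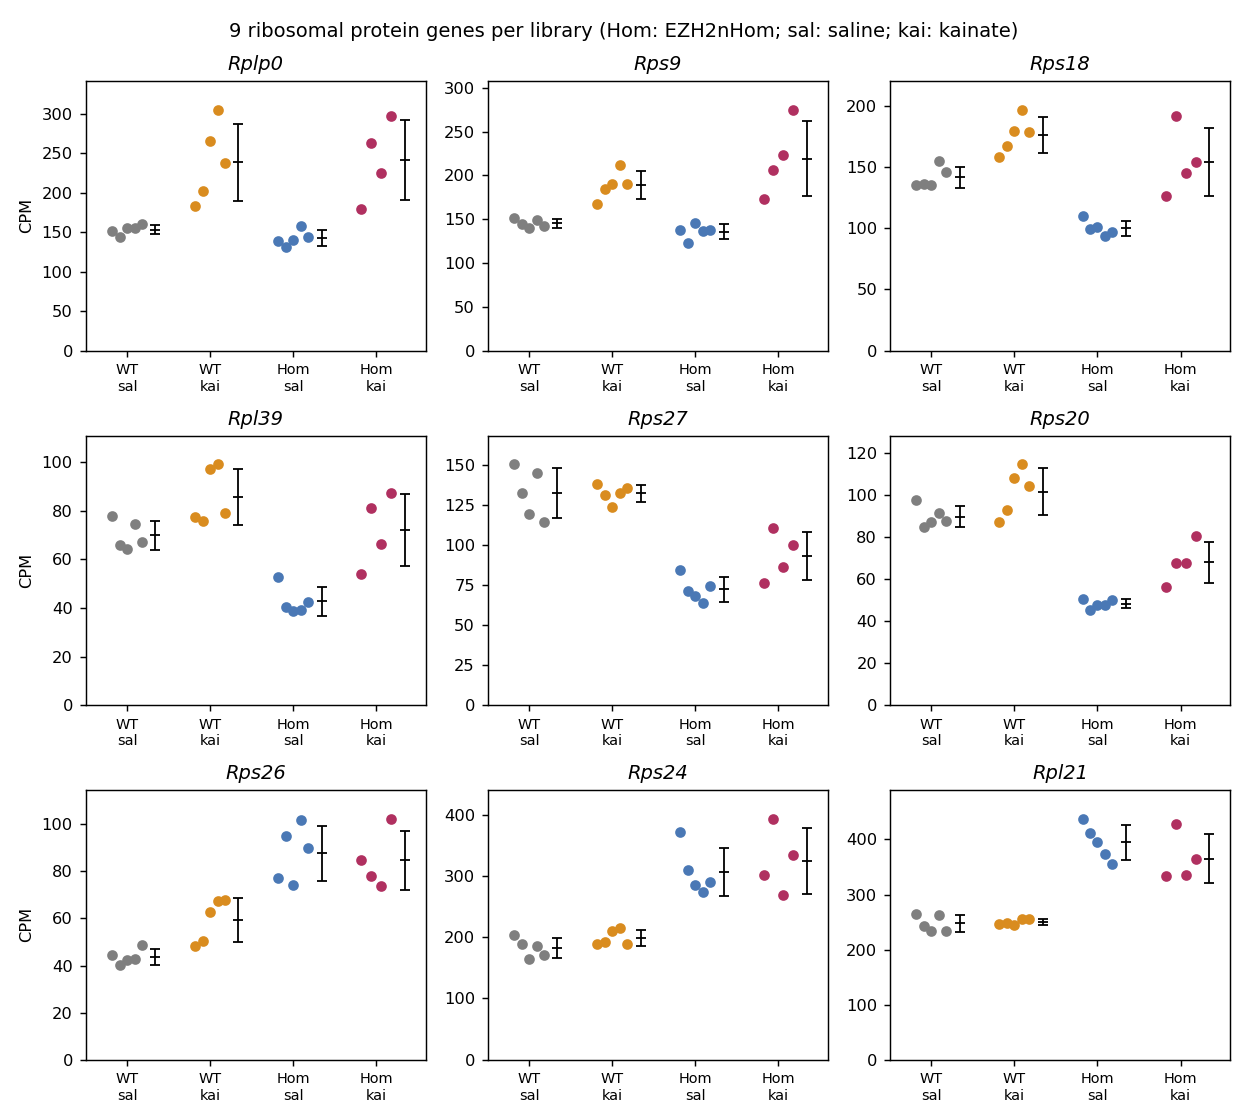
CPM of 9 ribosomal protein genes in each of the 19 libraries. Points are libraries from replicate 1 at the left of a group, and bars give mean ± SD (n = 5, 5, 5 and 4). Rplp0, Rps9 and Rps18 are higher in every kainate library than in the saline libraries of its genotype, Rpl39, Rps27 and Rps20 are low in EZH2nHom saline, and Rps26, Rps24 and Rpl21 are high in EZH2nHom.

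Other measures moved with the kainate rise. Microglia markers, 10 genes summed, ran from 447 to 501 CPM in WT saline and 867 to 2581 CPM in WT kainate, and in EZH2nHom mice from 378 to 432 CPM without and 1268 to 2614 CPM with kainate, where 10 and 9 of the 10 rose. Astrocyte markers rose in 4 and 5 of 8 genes, neuron markers fell in 1 and 4 of 9, and hippocampal neuron markers in 3 and 4 of 7. The sums of the last ran from 892 to 1203 CPM in WT saline, 775 to 1056 in WT kainate, 851 to 1027 in EZH2nHom saline and 452 to 1056 in EZH2nHom kainate. Choroid plexus markers were called in 0 of 5 genes in either genotype, with medians of -1.28 and -2.88 on the log2 scale, and their sums ran from 14.2 to 3941 CPM between libraries. Infiltrating leukocyte markers reached at most 20.5 CPM in sum, with Cd3e, Cd8a and Ms4a1 averaging under 0.5 CPM in every group. Oligodendrocyte markers fell in 4 of 6 genes in EZH2nHom, and red blood cell markers rose in 5 of 5 in WT, from sums of 258 to 770.3 CPM to sums of 552 to 1974 CPM. The part of these cells in the ribosomal protein rise was not tested. The share of reads on small structural RNAs was 0.0725% ± 0.0105 in WT saline and 0.164% ± 0.0558 in WT kainate (SD, n = 5 each). With that share as a covariate 0 members were called in WT and 49 rose in EZH2nHom, against 3.20% and 14.97% of all genes rising in the same fits.

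In WT the count was 7 without WT saline replicate 2 and 7 without WT kainate replicate 4, where 6.72% and 5.94% of all genes rose. In EZH2nHom it was 28 without kainate replicate 4, 31 without kainate replicate 2 and 63 without kainate replicate 1, where 11.4%, 15.3% and 16.6% of all genes rose. The code at the start of a sample's label has no stated meaning. Such prefixes were shared between WT arms for 2 prefixes: within one, the median member change was 0.02 with 46 of 82 members above 0 (1 library against 1), and within the other it was 0.21 with 70 above 0 (1 against 3). The EZH2nHom arms shared 0 prefixes, so there prefix and treatment cannot be told apart.

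The difference between the kainate responses was not called for any member. The edgeR test called 0 of 82 members and 0% of all genes, with 15 members at an unadjusted p under 0.05 against 8.76% of all genes, and the DESeq2 Wald test called 0 members, with 3 genes higher and 9 lower in all. The median difference was 0.13, higher in EZH2nHom for 66 of 82 members, where 47.9% of all genes were above 0. Among the smallest p were those of Rpl37a (0.40 ± 0.12, edgeR adjusted p = 0.44) and Rpl9 (0.44 ± 0.15). The WT and EZH2nHom responses share no libraries. Of the 12 WT risers 10 were called in EZH2nHom too, where 1569 of the 1821 WT risers among all genes were.

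**Figure D3:**
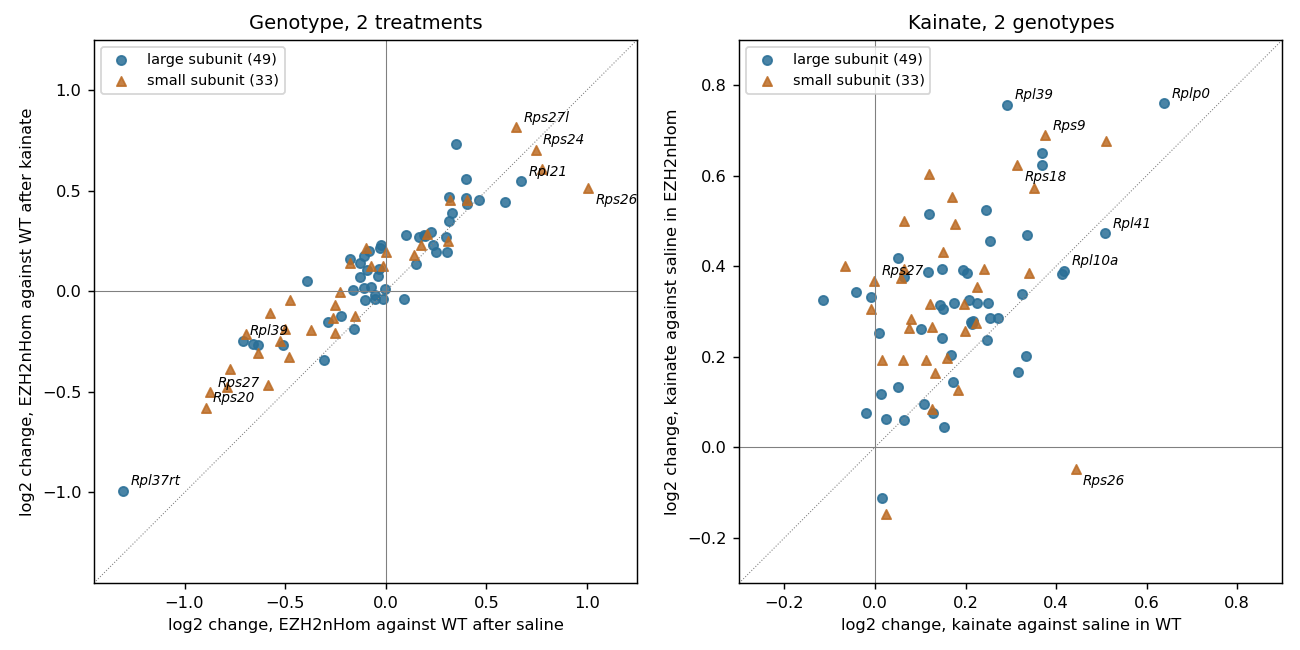
Log2 changes of 82 ribosomal protein genes. Left, EZH2nHom against WT after saline (x) and after kainate (y); right, kainate against saline in WT (x) and in EZH2nHom (y). Circles are large-subunit and triangles small-subunit genes, and the dotted line marks equal change. On the left points follow the diagonal from Rpl37rt to Rps26, and on the right most lie above 0 on both axes.

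After saline, ribosomal protein genes differed between the genotypes in both directions. In EZH2nHom 16 members were higher, 20 were lower and 46 did not pass, where 8.33% of all genes were higher and 5.16% lower, or 15.5% and 7.7% of genes averaging at least 50 CPM. The members' median was -0.06 (all genes 0.02), but their changes spread with an SD of 0.43 on the log2 scale, against 0.34 for genes averaging at least 50 CPM. The groups did not overlap for 23 members that were higher and 22 that were lower, where 12.9% and 8.42% of all genes did so. By subunit, 10 large-subunit genes were higher and 6 lower, and 6 small-subunit genes were higher and 14 lower. As a share of all reads, before TMM scaling, members made 1.252% to 1.380% in WT saline and 1.04% to 1.16% in EZH2nHom saline, so the raw shares did not overlap while the TMM-scaled sums did.

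Rps20, a protein of the small subunit head, was lower in EZH2nHom than in WT. It had 97.8, 84.7, 87.1, 91.6 and 87.6 CPM in WT saline and 50.8, 45.2, 47.7, 47.7 and 49.9 CPM in EZH2nHom saline, and 87.3, 92.9, 108, 115 and 104 CPM in WT kainate and 56.1, 67.6, 67.9 and 80.3 CPM in EZH2nHom kainate. The genotypes did not overlap under either treatment. The log2 difference was -0.90 ± 0.09 after saline and -0.58 ± 0.10 after kainate (edgeR adjusted p = 4.2e-06 and 0.0022). Rps27, a zinc-finger protein of the small subunit, had 150.4, 132, 119.5, 145 and 115 CPM in WT saline and 84.2, 71.2, 68.2, 63.8 and 74.4 CPM in EZH2nHom saline. It had 138, 131, 124, 133 and 135 CPM in WT kainate and 76.5, 111, 86.3 and 99.9 CPM in EZH2nHom kainate. All 9 EZH2nHom libraries were below all 10 WT libraries, with log2 differences of -0.87 ± 0.10 and -0.50 ± 0.11 (edgeR adjusted p = 1.6e-05 and 0.010).

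Rpl37rt, named as a retrotransposed copy of Rpl37, at 5.36 ± 0.569 CPM in WT saline and 2.17 ± 0.172 CPM in EZH2nHom saline (SD, n = 5 each), had the largest difference (-1.30 ± 0.12). It passed after kainate too (-0.99 ± 0.13). Rpl37 itself was also lower after saline (-0.51 ± 0.09), and 42.5% of the 50-base stretches of Rpl37rt occur in another gene model. Rps27rt, of which 91.1% is shared, was lower after saline too (-0.79 ± 0.19). Rps19, the gene most often mutated in Diamond-Blackfan anaemia, was lower after saline (-0.64 ± 0.10), as were the large-subunit genes Rpl37a (-0.66 ± 0.08), Rpl13 (-0.64 ± 0.09) and Rpl39 (-0.71 ± 0.12). None of these 4 passed after kainate, where they gave -0.31, -0.26, -0.27 and -0.25.

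Rps26 was the member with the largest excess in EZH2nHom after saline, 1.01 ± 0.12, and it was also higher after kainate, 0.51 ± 0.12 (edgeR adjusted p = 1.6e-05 and 0.016). From the values above, all 9 EZH2nHom libraries lay over all 10 WT libraries. Rps24, another small-subunit protein, had 203, 189, 164, 186 and 170.1 CPM in WT saline and 372, 309.5, 285, 273 and 289 CPM in EZH2nHom saline. It had 189, 193, 211, 215 and 189 CPM in WT kainate and 301, 393, 268 and 335 CPM in EZH2nHom kainate. The differences were 0.74 ± 0.10 and 0.70 ± 0.11 (edgeR adjusted p = 8.1e-05 and 0.0014), with no overlap.

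Rpl21 of the large subunit had 264, 243, 233, 263 and 234 CPM in WT saline and 437, 412, 395, 373 and 355 CPM in EZH2nHom saline, and 245 to 256 CPM in WT kainate against 333 to 428 CPM in EZH2nHom kainate. Its log2 differences of 0.67 ± 0.08 and 0.55 ± 0.08 both passed, and its kainate changes were 0.01 ± 0.08 in WT and -0.11 ± 0.08 in EZH2nHom, neither passing. Rpl27a (0.40 and 0.56) and Rpl35, a protein of the exit port (0.40 and 0.46), were higher under both treatments. So was Rps23 of the decoding centre (0.32 and 0.45). Among paralogues, Rps27l was higher in EZH2nHom (0.65 ± 0.19 and 0.82 ± 0.20) while its parent Rps27 was lower, and Rpl36al was higher (0.46 ± 0.10 and 0.45 ± 0.10) while Rpl36a was higher after saline (0.25 ± 0.08) and gave 0.20 ± 0.08 after kainate.

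After kainate 15 members were higher in EZH2nHom, 3 were lower and 64 did not pass, where 4.56% of all genes were higher and 3.04% lower, or 6.7% and 6.8% of genes averaging at least 50 CPM. The median was 0.12 (all genes 0.00). The groups did not overlap for 10 higher and 6 lower members, where 4.13% and 3.13% of all genes did so. The saline and kainate comparisons use different libraries of both genotypes. Of the 16 higher after saline, 13 were called higher after kainate as well and the other 3 had the same sign. Of the 20 lower after saline, 3 were called lower after kainate and 19 had the same sign. Among all genes, 566 of the 1603 higher after saline were called higher after kainate and 1473 had the same sign. For the 993 genes lower after saline these numbers were 287 called lower and 902 with the same sign. Across the 82 members the 2 sets of log2 differences had Spearman's rho of 0.93, as against 0.70 across genes averaging at least 50 CPM and 0.41 across all genes. These are descriptions across genes, which share the libraries and are not independent.

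**Figure D4:**
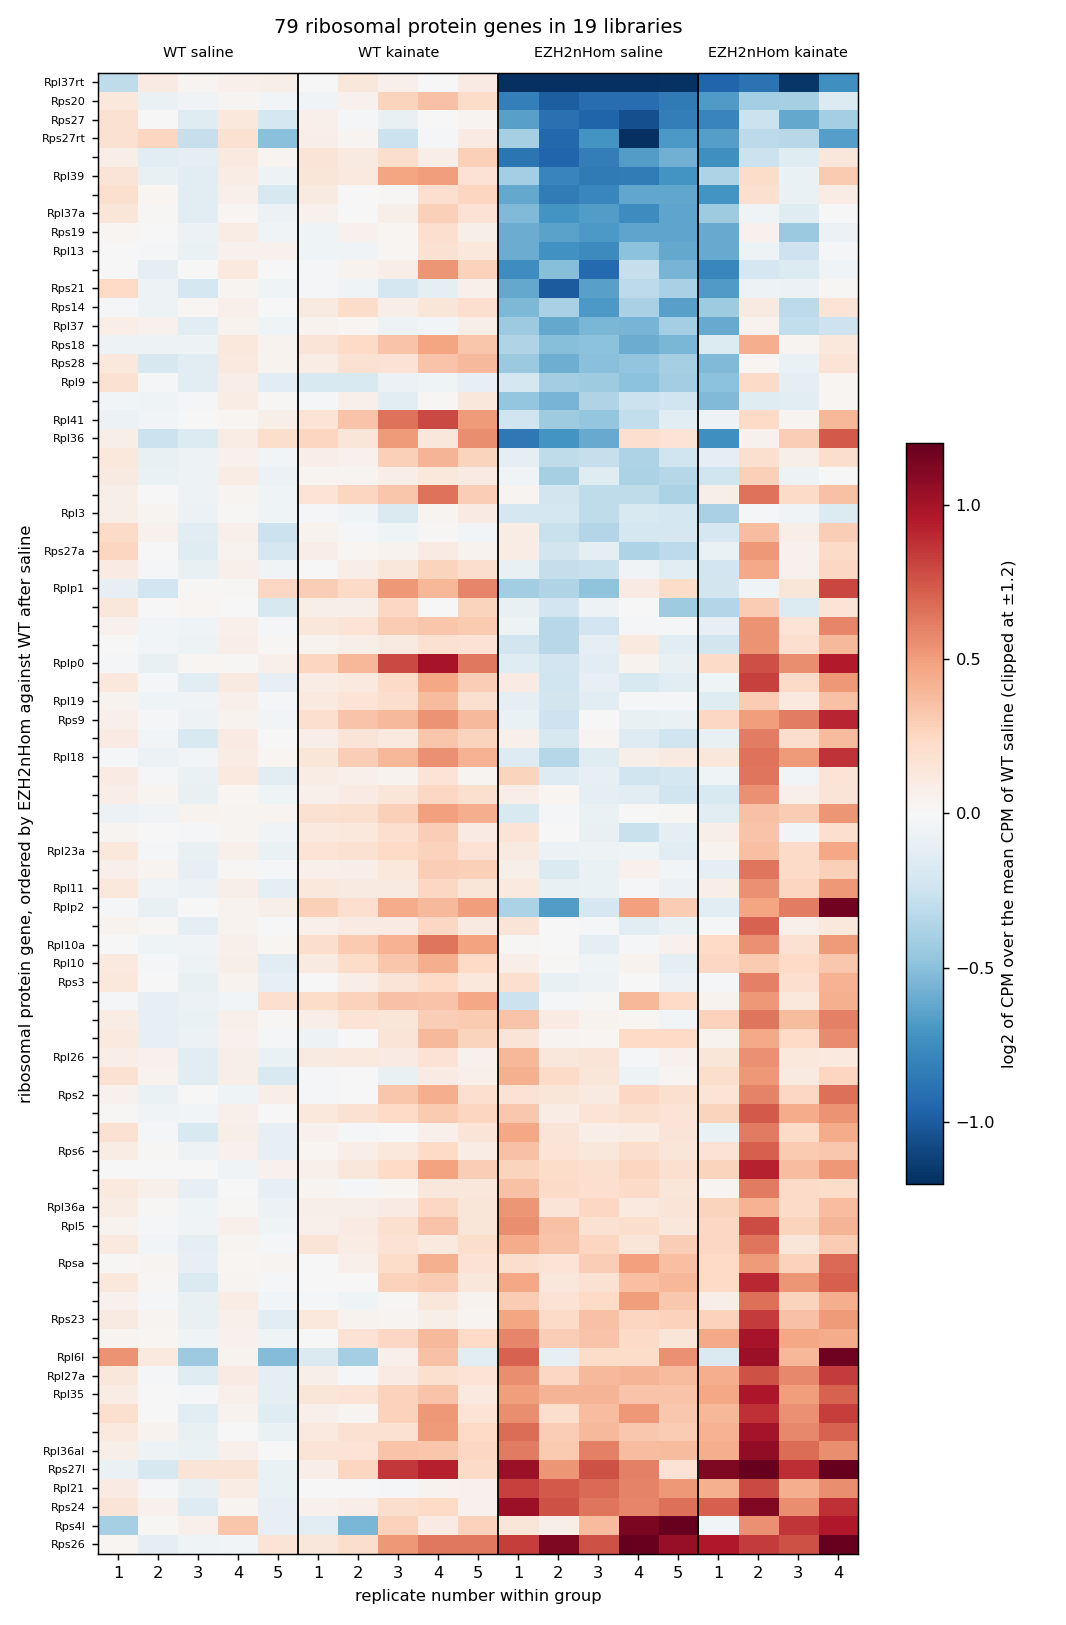
Log2 ratio of CPM to the WT saline mean for 79 of the 82 ribosomal protein genes (rows) in 19 libraries (columns, by group and replicate). Rows run from the lowest to the highest difference between EZH2nHom and WT after saline, blue is lower and red is higher. The upper rows are blue in EZH2nHom saline and in EZH2nHom kainate replicate 1, and paler in EZH2nHom kainate replicates 2 to 4.

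The levels of the members called after saline were followed in every group. For the 20 lower ones, the median log2 ratio to the WT saline mean ran from -0.69 to -0.53 in the 5 EZH2nHom saline libraries. In EZH2nHom kainate it was -0.60, -0.01, -0.15 and 0.02 in replicates 1 to 4, so replicate 1 kept the saline level and the others lay nearer WT saline. The median over all 82 members in these libraries was -0.05, 0.52, 0.20 and 0.37, so the lower set stayed below it in each. In WT kainate the median of the lower set ran from 0.05 to 0.19, above all 4 EZH2nHom kainate libraries. For the 16 that were higher after saline the median of an EZH2nHom library was 0.30 to 0.56 after saline and 0.43 to 0.86 after kainate. Members of both sets were picked on the saline libraries, so these values are a description, and the test of the difference of the kainate responses called 0 of 82 members.

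The sets that differed by genotype also differed in transcript length. The 20 members lower after saline had a median model length of 636.5 bases, the 16 higher 1034 bases and the 46 others 914 bases (GENCODE models). The ranges overlapped, at 345 to 3706, 457 to 1938 and 383 to 5179 bases. Across 82 members, Spearman's rho of length with the genotype difference was 0.43 after saline and 0.46 after kainate, and with the kainate change 0.05 in WT and -0.24 in EZH2nHom. The rho of GC content with the genotype difference was -0.17 and -0.22. When GC content and length were corrected for, an alternative chosen after the data were seen, 10 members were higher and 30 lower after saline, and 13 higher and 9 lower after kainate. In the same fit 6.16% of all genes were higher and 6.88% lower after saline, and 4.94% and 2.94% after kainate.

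Other measures also moved with genotype. Astrocyte markers, 8 genes summed, ran from 5969 to 6649 CPM in WT saline and 4738 to 5314 CPM in EZH2nHom saline. After saline 2 of these 8 were lower, and 0 of 10 microglia and 0 of 9 neuron markers were called. After kainate 1 of 8 astrocyte and 1 of 9 neuron markers were lower, and 0 of 10 microglia markers were called. Of all genes 8.33% were higher and 5.16% lower after saline, and 4.56% and 3.04% after kainate. Of 7 hippocampal neuron markers 1 was higher and 1 lower after saline, and 0 were called after kainate. Oligodendrocyte markers were higher in 2 of 6 genes after saline, and red blood cell markers lower in 5 of 5 after kainate. Their part in the result was not tested. Structural RNA took 0.416% ± 0.261 of reads in EZH2nHom saline (SD, n = 5) and 0.362% ± 0.276 in EZH2nHom kainate (n = 4). With it as a covariate, 6 members were higher and 22 lower after saline, and 11 higher and 11 lower after kainate. In the same fit 4.87% of all genes were higher and 2.79% lower after saline, and 4.79% and 2.80% after kainate. Rpsa, higher after saline by 0.31 (edgeR adjusted p = 0.035), gave -0.025 with that covariate (adjusted p = 0.93). The genotypes shared 0 code prefixes, so prefix and genotype cannot be told apart. By reads on Xist, 2 of 5 WT libraries under either treatment were read as female, and among EZH2nHom libraries 0 of 5 after saline and 1 of 4 after kainate. With sex as a covariate 10 members were higher and 22 lower after saline, and 14 and 8 after kainate. In that fit 6.65% of all genes were higher and 4.14% lower after saline, and 3.88% and 2.60% after kainate. In a fit to the 2 kainate groups alone 0 members and 4 of 18504 genes were called. Without EZH2nHom kainate replicate 2 the kainate median was -0.0037, with 9 members higher and 6 lower, where 3.68% and 3.05% of all genes were. Without EZH2nHom kainate replicate 4 the counts were 12 and 11, where 5.11% and 2.61% of all genes were. Without replicate 1 they were 24 and 3, beside 6.59% and 3.92% of all genes. After saline the number higher fell from 16 to 7 without WT saline replicate 3 or 5, to 8 without replicate 2 and to 9 without replicate 4. It fell to 10 without WT saline replicate 1 or EZH2nHom saline replicate 1. In these fits 4.29% to 6.23% of all genes were higher. Of the 20 lower members, 19 or 20 were called again when any 1 saline library was left out.

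Within EZH2nHom saline, 2 libraries (replicates 4 and 5) had 0.633% to 0.762% structural RNA reads and 3 had 0.216% to 0.243%. Both were above the other 3 for 19 of 82 members (23.2%) and below them for 13 (15.9%), against 13.9% and 14.98% of all genes. The stalk protein Rplp2 had 28.9, 23.7, 32.8, 53.1 and 46.6 CPM in replicates 1 to 5 and Rpl36 11.9, 13.1, 14.2, 24.8 and 24.2 CPM, against WT saline ranges of 35.5 to 39.5 and 17.98 to 24.97 CPM. Replicates 1 to 3 were below the WT range for both genes, while replicates 4 and 5 were above it for Rplp2 and inside it for Rpl36. In EZH2nHom kainate, replicate 4, the library of that group with 0.771% structural RNA reads, also had the highest Rplp2, 34.3, 52.4, 57.6 and 84.0 CPM in replicates 1 to 4. The part of this share in the values was not tested.

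Levels among members can be set side by side only per length. Per kilobase of the chosen transcript model the members that passed ranged from 2.87 CPM for Rpl6l to 405 CPM for Rpl26, with a median of 166 CPM. The low end held the paralogues and copies, such as Rps27rt, at 2.78 ± 0.606 CPM per gene in WT saline (SD, n = 5).

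Some ribosomal proteins have names outside the rule. Rack1, a scaffold on the head of the small subunit, rose in WT (0.38 ± 0.11, edgeR adjusted p = 0.029) and in EZH2nHom (0.64 ± 0.12, adjusted p = 5.4e-04). Fau, which encodes a small-subunit protein fused to a ubiquitin-like domain, rose in both (0.29 and 0.35). Rpl22l1, the paralogue of Rpl22, was lower in EZH2nHom, from 48.4 ± 5.96 CPM in WT saline to 24.6 ± 4.07 CPM in EZH2nHom saline (SD, n = 5 each; -0.98 ± 0.13), and after kainate (-0.66 ± 0.14). Rps3a1 was higher (0.36 and 0.39), and Rpl7l1 passed in no comparison.

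Other genes of TOP mRNAs, mostly translation factors, rose in 3 of 20 cases in WT and 6 of 20 in EZH2nHom, and 0 fell, where 9.47% and 14.3% of all genes rose. Tpt1, which encodes the translationally controlled tumour protein, rose by 0.64 ± 0.12 and 0.68 ± 0.12 (edgeR adjusted p = 0.0011 and 4.6e-04), and Pabpc1, the poly(A)-binding protein, by 0.47 and 0.55. The elongation factor gene Eef1d in both (0.26 and 0.24), Eef1b2 in EZH2nHom (0.27) and the initiation factor gene Eif3f in EZH2nHom (0.36), also rose. Eef1a1, the most abundant of the list, gave 0.22 in WT without passing (edgeR adjusted p = 0.081).

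Of 37 ribosome biogenesis factors 0 were called in WT (edgeR) after kainate, 2 at an unadjusted p under 0.05, and in EZH2nHom 2 rose and 5 fell. Of all genes 9.47% rose and 2.57% fell in WT, where 4741 of 19234 had an unadjusted p under 0.05. In EZH2nHom 14.3% of all genes rose and 11.8% fell. Polr1a, the largest subunit of RNA polymerase I, fell (-0.35 ± 0.08), as did the nucleolar GTPase gene Gnl3l (-0.38) and Rpf2, which loads the 5S particle (-0.50), while Polr1c rose (0.34). Against WT, 12 of the 37 were higher in EZH2nHom after saline and 8 after kainate, with 0 lower in either. Of all genes 8.33% were higher and 5.16% lower after saline, and 4.56% and 3.04% after kainate. Among genes averaging at least 50 CPM 15.5% were higher after saline and 6.7% after kainate. Mitochondrial ribosomal proteins gave 1 rise in WT, Mrps6 (1.10 ± 0.26). In EZH2nHom they gave 2 rises and 14 falls among 78, with Mrpl58 (-0.44), Mrpl57 (-0.35) and Mrpl48 (-0.32) falling. There 11.8% of all genes fell, or 22% of genes averaging at least 50 CPM. In EZH2nHom against WT 24 of the 78 were higher and 3 lower after saline, and 11 higher and 1 lower after kainate, beside the genotype shares of all genes given above.

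In the mTORC1 and growth list of 18 genes 1 rose in WT, and 2 rose and 2 fell in EZH2nHom, where 14.3% of all genes rose and 11.8% fell. Eif4ebp1, the repressor of cap-dependent initiation, was at 1.09 ± 0.133 CPM in WT saline and 2.39 ± 1.08 CPM in WT kainate (SD, n = 5 each). It rose by 1.13 ± 0.29 in WT and 1.501 ± 0.30 in EZH2nHom (edgeR adjusted p = 0.016 and 0.0013). In EZH2nHom Myc rose (0.95), and Mtor (-0.22) and Rps6kb1, the S6 kinase gene (-0.28), fell. In the list on ribosome quality control and stress, Eif2ak2, the interferon-induced kinase PKR, rose by 1.83 ± 0.32 and 2.30 ± 0.33. In EZH2nHom Nemf (-0.35) and Ankzf1 (-0.31), which act on stalled nascent chains, fell.

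**Figure D5:**
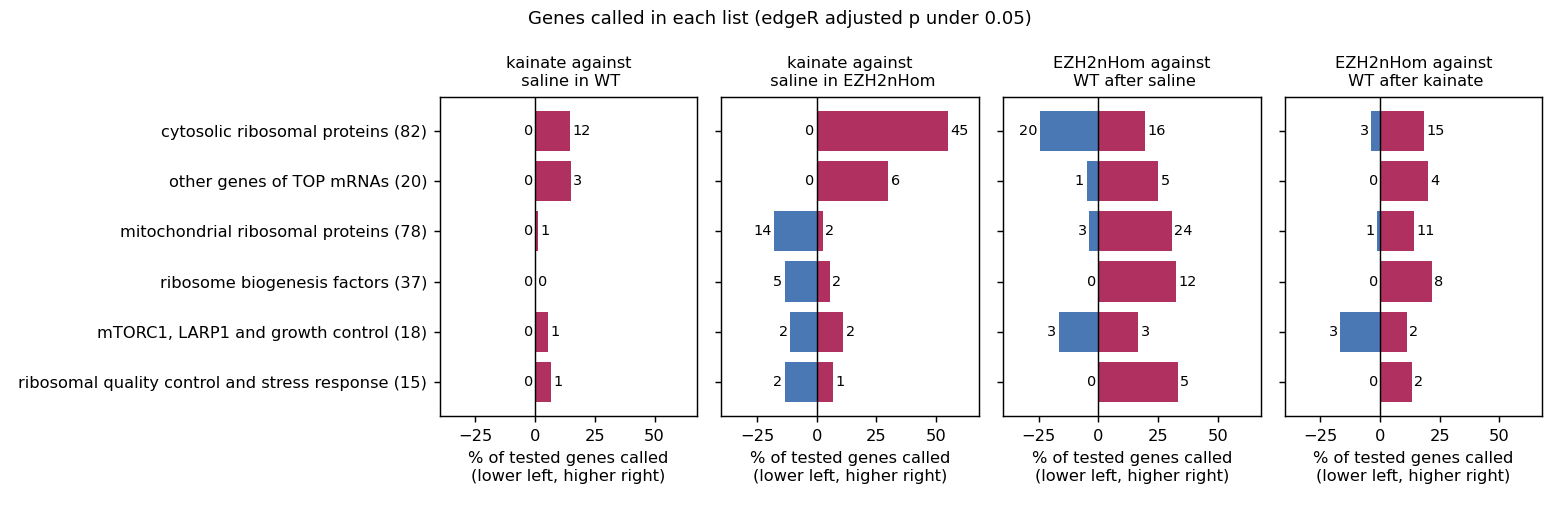
Share of the tested genes of 6 lists called higher (right of 0) or lower (left of 0) in 4 comparisons, with the number called at each bar end and the number tested in parentheses. Cytosolic ribosomal protein genes reach 45 of 82 higher after kainate in EZH2nHom with 0 lower, where 14 of 78 mitochondrial ribosomal protein genes are lower. In that comparison 14.3% of all genes are higher and 11.8% lower.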

How the data were processed

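Total RNA libraries from right hippocampus were compared in 4 groups. The authors deposited raw read counts per Ensembl gene, and these were used for every test. Their second table, not used for values here, holds counts divided by size factors (a deposited signal), a log2 fold change, a test score, p-values and other columns such as its standard error, per the file headers, for a comparison the file does not state. Its symbols named 32313 genes, a reference table named 20022 and 3081 stayed unnamed. Per the submitters' processing notes the build was mm39 and DESeq2 and DESeq were used; aligner, counter, annotation and strand are not given in the sources used here.

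Counts were fitted with edgeR 4.0.16 (R 4.3.3, limma 3.58.1, TMM scaling, filterByExpr, quasi-likelihood test, two-sided) in 1 model over 19 libraries, with Benjamini-Hochberg adjustment over 19234 genes. The fit was tested on simulated data. DESeq2 1.42.0, other filters, scalings, covariates, a replicate block and each library left out were alternatives, and the correction for GC content and length and a block on the column numbers were added after the data were seen. Python 3.11.15 made summaries. Members, lists and tests were chosen with earlier results of these data known. Named are all genes of the role lists described, the 6 members with the smallest p called in each direction, the extremes in each kainate comparison, members that failed the filter and up to 4 genes per pathway list. Further genes were chosen after their values were seen. Some genes that the rule names are not reported here by name. Transcript length, GC content and shared 50-base stretches came from GENCODE models on GRCm38, and start windows from RefSeq on GRCm38.p6. Each gene was represented by its best-ranked principal transcript (APPRIS), and by the longest transcript where ranks tied or none was marked. No coordinates were converted. The titles number the EZH2nHom kainate libraries 1 to 4 and the count columns and descriptions number them 2 to 5; the title numbers are used.

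Same-numbered WT libraries deviated together between treatments (r 0.22 to 0.57 in 5 pairs over 11754 genes), although no label says why. WT saline replicates 1 and 4 correlated better with a WT kainate library of another number, so the data do not settle a pairing. The main fit used none. EZH2nHom pairs (-0.03 to 0.19) and pairs across genotypes (0.07 to 0.57 after saline, -0.06 to 0.52 after kainate) were not all above 0.1, nor were they by column number (-0.12 to 0.21 and -0.35 to 0.41).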

Additional observations from a re-analysis of the deposited data

Results flagged for a closer look

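The levels of 20 named members and the summed level were checked in 84 groups of 4 or 5 libraries, and 2 groups held a library set apart from the rest by a gap larger than Dixon's 95% critical value, which chance gives in about 1 group in 20. Rpl37rt in WT saline was lowest in replicate 1, at 4.35 CPM, where the others ran from 5.47 to 5.72 CPM. Rpl39 in EZH2nHom saline was highest in replicate 1, at 52.8 CPM, where the others ran from 38.8 to 42.5 CPM.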

How the results depend on the processing

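Of 600 refits of 30 named changes, 582 kept direction and call, 18 kept direction but lost the call and 0 reversed. Those lost were 5 WT kainate changes and Rpl27a and Rpl35 after saline with structural RNA share as covariate, and 8 genotype differences after kainate in the fit to the groups compared only and 3 with the block on column numbers. The named changes had the smallest p among called members, so their retention does not describe the rest. Of the 16 members higher after saline, 6 were called again with that covariate, and Rpsa, outside the 30, changed sign. Of the 12 WT risers, 7 were called again without WT saline replicate 2. In WT 12 members rose; 3 did at an adjusted p under 0.01, 24 in the groups compared only, 0 with structural RNA share as covariate, and 7 to 14 with 1 library left out. In EZH2nHom 45 rose, 25 at an adjusted p under 0.01 and 32 in the groups compared only, and 28 to 63 members were called with 1 library left out. In the fits to the groups compared only, 11.7% of all genes rose in WT and 11.6% in EZH2nHom. After saline 36 differed by genotype, and 29 to 36 with 1 library left out. After kainate 18 differed, 8 at an adjusted p under 0.01, 0 in the groups compared only, and 14 to 27 with 1 library left out. The DESeq2 Wald test gave 17 higher and 9 lower there, where it called 6.76% of all genes higher and 4.75% lower. Shares of all genes at an adjusted p under 0.01 are not given, so those counts have no background beside them. The kainate genotype median of 0.12 was -0.0037 without EZH2nHom kainate replicate 2 and ranged to 0.20. The median difference of responses, 0.13, was 0.27 without EZH2nHom kainate replicate 1, with a range of 0.049 to 0.27, and 0 members were called there in any alternative. Other medians with 1 library left out ran from 0.13 to 0.17 and 0.22 to 0.44 for kainate in WT and EZH2nHom, and from -0.13 to -0.05 for genotype after saline. With the replicate block 13 members rose in WT, 35 in EZH2nHom, 16 were higher and 22 lower after saline, and 10 higher and 3 lower after kainate. In WT, 10 of the 12 were called again with the replicate block. With the block on the numbers of the count columns 43 rose in EZH2nHom and 5 differed by genotype after kainate (3 higher, 2 lower). There 11.5% of all genes rose in EZH2nHom, and 0.63% were higher and 0.41% lower by genotype after kainate. Causes were not tested. Depth limits Rpl3l, Rpl32l and Rpl39l.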
